A study of Mus musculus with 2 samples.

Results

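The chemokine genes are here the 35 genes, among 20807 that GENCODE M21 lists as autosomal and protein-coding on the mouse genome GRCm38, whose names are Ccl or Cxcl followed by digits, with or without a final letter. They comprise 12 Cxcl and 23 Ccl genes on 8 chromosomes. CG methylation was measured by whole-genome bisulfite sequencing (WGBS) in primary osteoblasts from the calvaria of 3-day-old C57BL/6 mice, cultured for 3 days. There was 1 WT library and 1 TCKO library. TCKO mice carry Prx1-Cre together with Tet1fl/fl, Tet2fl/fl and Tet3fl/fl, so that all 3 TET dioxygenase genes are deleted where Prx1-Cre is active, in the mesenchyme of the limbs and part of the skull. The WT alleles are given only as wild type, the number of pooled animals is not given in the sources used here, and cells that never expressed the Cre would keep their Tet genes. The comparison asks how CG methylation differs when the enzymes that oxidise 5-methylcytosine are missing.

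Chemokines are small secreted proteins that direct the movement of leukocytes through G protein-coupled receptors on the target cell. The Ccl and Cxcl names follow the spacing of the first cysteines, and many members arose by tandem duplication and lie in clusters. Osteoblasts and other stromal cells of bone are known sources of several of them, among them Cxcl12, which retains haematopoietic stem cells in the marrow, and Ccl2 and Ccl7, which draw in monocytes, the precursors of osteoclasts.

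A methylation level is the share of methylated calls among all calls pooled over the CG cytosines of a region, and differences are given as TCKO minus WT in percentage points. Over the autosomes the level was 70.4% in WT (250877554 calls) and 76.6% in TCKO (214609823 calls), and covered cytosines had a median of 4 calls in each. With 1 library per genotype no difference has a replicate check, a test sets 2 libraries against each other rather than genotypes, and intervals cover counting error only. The osteoblast collagen gene Col1a1 was at 0.613% in WT and 2.76% in TCKO within 1 kb of its TSS, and the leukocyte gene Ptprc at 78.4% and 80.3%. Over the marker lists, TSS windows in WT lay between 0.613% and 71.8% for 8 osteoblast genes, between 61.9% and 78.4% for 8 blood genes and between 11.7% and 80.7% for 6 endothelial genes, and 3, 1 and 3 of them were higher in TCKO by the rule given below for TSS windows, which called 16.7% of those of all genes. In bulk DNA a different mix of cells and a change within the cells cannot be told apart, and the part of other cell types in the results was not tested.

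The elements with the clearest gain are shown first, because they are among the places in these loci where the libraries differed most. They are the 8 bins of 200 bp with the largest gain within 10 kb of a chemokine gene that had at least 30 calls in each library, with at most 2 for each gene. Every sequence is the plus strand of GRCm38, and the capitals mark the CG sites that can carry the methylation.
Ccl9 intron, chr11:83578001-83578200: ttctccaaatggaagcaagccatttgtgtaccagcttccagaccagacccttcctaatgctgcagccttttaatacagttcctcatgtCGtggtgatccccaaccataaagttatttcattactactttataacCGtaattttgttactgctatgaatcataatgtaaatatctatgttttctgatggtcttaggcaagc
Cxcl9 upstream element, chr5:92332401-92332600: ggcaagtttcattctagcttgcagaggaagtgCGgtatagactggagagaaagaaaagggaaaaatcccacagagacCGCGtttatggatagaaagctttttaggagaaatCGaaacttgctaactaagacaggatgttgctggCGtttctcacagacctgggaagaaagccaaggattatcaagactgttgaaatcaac
Cxcl2 downstream element, chr5:90908201-90908400: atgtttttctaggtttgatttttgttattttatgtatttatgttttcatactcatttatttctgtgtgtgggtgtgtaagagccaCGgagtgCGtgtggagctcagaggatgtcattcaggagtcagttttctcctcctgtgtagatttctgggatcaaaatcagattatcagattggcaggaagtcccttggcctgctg
Ccl5 upstream element, chr11:83534601-83534800: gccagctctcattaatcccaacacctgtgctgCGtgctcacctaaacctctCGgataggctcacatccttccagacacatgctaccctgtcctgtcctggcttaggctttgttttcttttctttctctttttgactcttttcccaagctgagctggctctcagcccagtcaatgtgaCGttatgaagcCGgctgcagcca
Ccl28 intron, chr13:119631601-119631800: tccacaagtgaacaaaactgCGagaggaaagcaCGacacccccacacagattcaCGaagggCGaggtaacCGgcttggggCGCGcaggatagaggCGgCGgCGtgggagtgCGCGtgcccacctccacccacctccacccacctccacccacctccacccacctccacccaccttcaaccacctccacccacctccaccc
Ccl9 downstream element, chr11:83572401-83572600: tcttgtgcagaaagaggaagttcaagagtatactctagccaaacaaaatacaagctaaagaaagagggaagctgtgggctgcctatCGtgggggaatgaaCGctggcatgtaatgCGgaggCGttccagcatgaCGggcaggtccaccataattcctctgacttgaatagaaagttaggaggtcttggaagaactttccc
Ccl5 far upstream element, chr11:83539401-83539600: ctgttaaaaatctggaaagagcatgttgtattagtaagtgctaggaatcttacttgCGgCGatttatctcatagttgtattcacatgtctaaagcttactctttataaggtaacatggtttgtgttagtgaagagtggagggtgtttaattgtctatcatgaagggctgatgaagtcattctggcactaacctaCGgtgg
Cxcl3 upstream element, chr5:90779201-90779400: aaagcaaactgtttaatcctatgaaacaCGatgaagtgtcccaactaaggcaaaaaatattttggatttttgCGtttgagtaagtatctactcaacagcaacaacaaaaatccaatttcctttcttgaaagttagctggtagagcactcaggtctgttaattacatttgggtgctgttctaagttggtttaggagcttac

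Each of these elements was far less methylated in WT than in TCKO. The Ccl9 intron element rose from 5.41% (95% Wilson interval 1.495 to 17.7) to 78.1% (61.3 to 89.0), with its 2 CG sites 501 and 547 bp into the gene. The Cxcl9 upstream element, whose midpoint lies -4422 bp from the TSS within an intron of Art3, rose from 1.18% (0.208 to 6.37) to 72.7% (62.6 to 80.9). The Cxcl2 downstream element, 4428 bp past the TSS, rose from 6.45% to 76.5%, and the Ccl5 upstream element at -4183 bp rose from 0% (no methylated call of 67, where 3 calls would be 4.48%) to 61.0% (45.7 to 74.3). Those elements were unmethylated or nearly so in WT. The others began at intermediate levels: the Ccl28 intron rose from 30.4% to 91.1%, the Ccl9 downstream element from 37.1% to 94.3%, the far upstream element of Ccl5 from 42.9% to 96.7% and that of Cxcl3 from 36.0% to 84.9%. The Ccl28 element was the only CG-dense member of the set, with 12 CG sites where the others held between 2 and 5. Since these bins were ranked by their gain, their values are a description.

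Around the TSS, the chemokine genes were mostly methylated already in WT osteoblasts. Over the 34 members tested, the window within 1 kb of the TSS had a median level of 61.3% for WT and 72.3% for TCKO, against 26.7% and 32.4% over all genes. These windows are poor in CG sites, with 9 to 154 and a median of 23, where the median over all genes is 64. A window or region was tested with 20 or more calls in each library, by a 2-sided exact test (Fisher) whose p was adjusted by the Benjamini-Hochberg method across all autosomal protein-coding genes, and called at a difference of 10 points or more with an adjusted p below 0.05. By that rule 9 of 34 members were higher in TCKO (26.5%), where the share over all genes was 16.7%, and 1 was lower, where it was 1.67%. The share of members higher fell below that of all genes with 2 kb on each side of the TSS (22.9% beside 23.9%), with only cytosines of 4 or more calls in both libraries (12.9% beside 13.8%) and on plus strand cytosines (12.5% beside 13.5%). Among members with fewer than 50 CG sites in the window 8 of 28 were higher (28.6%), beside 19.2% over all genes with such windows. The median difference was 7.69 points over members and 3.02 over all genes, and 26 of 34 members lay above 0. In windows with fewer than 50 CG sites the median level in WT was 66.9% over members and 62.0% over all genes. In TCKO it was 79.0% and 67.4%, and the median differences were 8.66 and 4.39 points. The level in WT was thus close to that of other windows poor in CG sites. Ccl21b had too few calls to be tested, and Ccl21a, Ccl21b, Ccl27a and Ccl27b have near-identical copies on chromosome 4, so their values are uncertain.

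**Figure D1:**
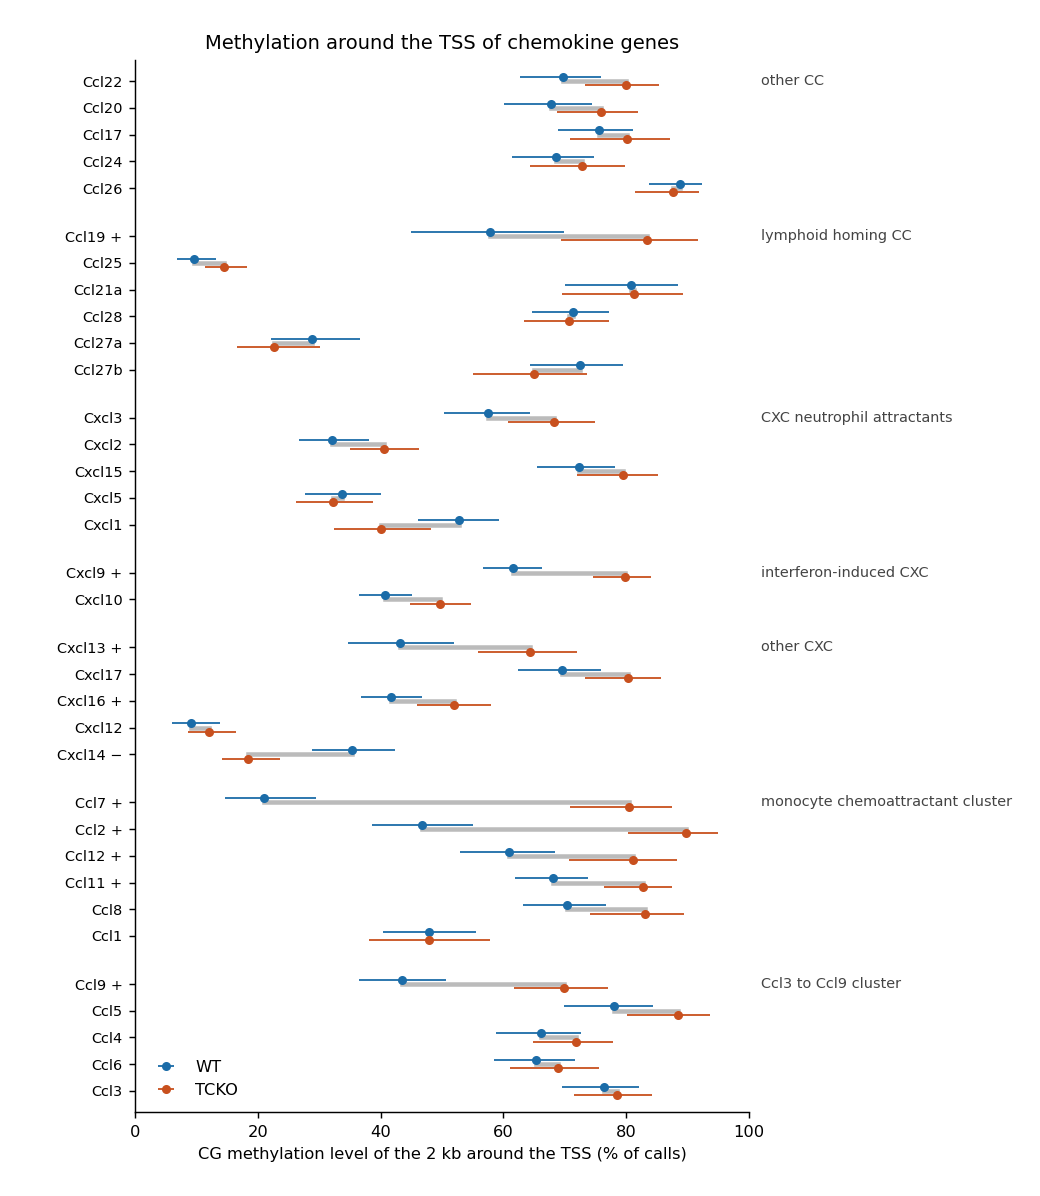
CG methylation level within 1 kb of the TSS (x axis, % of calls) of the 34 tested chemokine genes, grouped by role, in WT (blue) and TCKO (orange), with 95% Wilson intervals. A plus after the name marks the 9 genes called higher in TCKO and a minus the 1 called lower; Ccl7 rose from 21.1% to 80.5% and Ccl2 from 46.8% to 89.7%.

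The monocyte chemoattractant cluster of chromosome 11 held the largest TSS differences. Of its 6 genes 4 were higher in TCKO, with a median difference of 17.3 points. Ccl7, a ligand of Ccr2 (chromosome 11, 82045712 to 82047525, plus strand), was at 21.1% in WT (14.6 to 29.4, 114 calls) and 80.5% in TCKO (70.9 to 87.4, 87 calls). Its difference of 59.4 points (95% Newcombe interval 46.7 to 68.9; exact test, adjusted p = 2.88e-15) was the highest of the 20651 TSS windows tested, a rank noticed after the values were seen. Ccl2, the main monocyte chemoattractant (82035571 to 82037453, plus strand), was at 46.8% in WT (139 calls) and 89.7% in TCKO (68 calls), a difference of 42.9 points (30.4 to 52.6; exact test, adjusted p = 2.40e-08). Ccl12, a further monocyte attractant, rose from 61.0% to 81.1% (20.1 points, exact test, adjusted p = 0.0130). Ccl11, the eosinophil attractant eotaxin, rose from 68.1% to 82.7% (14.6 points, exact test, adjusted p = 0.00571). Ccl8 was at 70.4% and 83.1% and did not pass the test (exact test, adjusted p = 0.105). Ccl1, a ligand of Ccr8 at the end of the cluster, was at 47.9% in both libraries, and the start of its gene record lies 125878 bp from that of its principal transcript, where the window was at 56.8% and 63.2%.

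The difference at Ccl2 and Ccl7 had the same direction at each CG site with enough calls, but its size depended on the part of the window. In the Ccl7 window all 9 CG sites with 4 or more calls in each library were higher in TCKO, and in the Ccl2 window all 8. The deepest site of Ccl7, at -299 bp, had 2 methylated of 28 calls in WT and 20 of 24 in TCKO. From 1 kb upstream to 250 bp downstream of the TSS, Ccl2 rose from 12.5% (6.72 to 22.1, 72 calls) to 89.2% (75.3 to 95.7, only 37 calls). In the same part Ccl7 rose from 14.4% (8.94 to 22.4, 104 calls) to 79.0% (68.9 to 86.5, 81 calls). Further into the Ccl2 gene, beyond 250 bp and up to 1 kb, the level was 83.6% in WT and 90.3% in TCKO. In Ccl7 that part held only 1 CG site with a call, with 9 methylated of 10 calls in WT and 6 of 6 in TCKO. The methylated interior of the Ccl2 gene thus bordered a stretch with little methylation in WT that was methylated in TCKO. That boundary was placed after the values were seen.

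Over the neighbourhood of Ccl2 and Ccl7, from 10 kb before the one to 10 kb past the other, 14 of 16 windows of 2 kb were higher in TCKO and 5 were higher by 20 points or more. In windows of this size WT levels dipped most at 2 places, upstream of Ccl2 and around Ccl7. The window centred 3 kb upstream of the Ccl2 TSS was at 26.0% in WT and 57.1% in TCKO, and the next, ending at the TSS, at 46.8% and 90.6%. The 3 windows around the Ccl7 TSS were at 42.1%, 41.2% and 39.8% in WT and at 79.9%, 86.5% and 77.6% in TCKO. Between these dips, 5 kb past the Ccl2 TSS, the level was 94.4% in WT and 89.2% in TCKO. The window before it, at 72.5% in WT and 84.3% in TCKO, also held CG sites with little methylation in WT. Its site 3426 bp past the TSS had 0 methylated of 7 calls in WT and 9 of 10 in TCKO. The site at 3812 bp had 3 of 17 and 9 of 12, while that at 3218 bp had 0 of 3 in both libraries. The dip of WT at Ccl7 was not seen in TCKO.

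**Figure D2:**
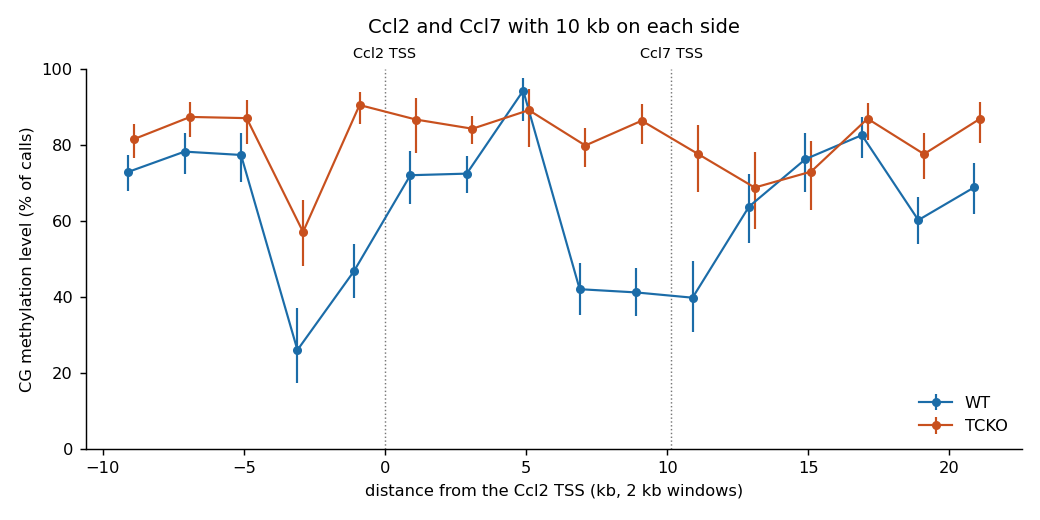
CG methylation level (% of calls) in 2 kb windows across Ccl2 and Ccl7 with 10 kb on each side, by distance from the Ccl2 TSS in kb, in WT (blue) and TCKO (orange) with 95% Wilson intervals. WT falls to 26.0% upstream of Ccl2, where TCKO is at 57.1%, and to about 40% around the Ccl7 TSS. In the windows just before each TSS TCKO reaches 90.6% and 86.5%, where WT is at 46.8% and 41.2%.

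The second CC cluster of chromosome 11 holds Ccl3, Ccl4 and Ccl5, also known as MIP-1 alpha, MIP-1 beta and RANTES, with the rodent genes Ccl6 and Ccl9. Of these 5 genes only Ccl9, a ligand of Ccr1 (83572919 to 83578636, minus strand), was higher at the TSS, at 43.5% in WT (36.5 to 50.7, 184 calls) and 69.9% in TCKO (61.7 to 77.1, 133 calls). The difference was 26.4 points (15.5 to 36.4; exact test, adjusted p = 6.46e-05). In its window 9 of 13 CG sites with 4 or more calls in each library were higher, the site at 119 bp had no methylated call in either library, and the gain was largest beyond 250 bp and up to 1 kb into the gene, from 23.4% (14.7 to 35.1) to 73.5% (59.7 to 83.8). Ccl3, Ccl4, Ccl5 and Ccl6 were at 65.3% to 78.0% in WT and differed by 2.04 to 10.5 points, none past the test.

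The 250 bases upstream of the Ccl9 TSS are shown because the gene is called at the TSS and holds the element of largest gain in its first kilobase. The sequence is that of RefSeq for GRCm38.p6, read 5′ to 3′ on the minus strand, with the CG sites in capitals. Of the 35 members, 25 had an entry in the RefSeq promoter table.
Ccl9 promoter, chr11:83578637-83578886: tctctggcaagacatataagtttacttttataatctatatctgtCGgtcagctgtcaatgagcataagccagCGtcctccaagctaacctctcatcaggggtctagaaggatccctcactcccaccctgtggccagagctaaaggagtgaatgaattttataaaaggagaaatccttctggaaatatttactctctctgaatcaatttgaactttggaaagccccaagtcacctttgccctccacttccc
These 2 sites lie at -205 and -177 bp. The first had 7 methylated of 16 calls in WT and 9 of 13 in TCKO, and the second 6 of 16 and 7 of 13, so at Ccl9 both sites of the proximal promoter showed a smaller difference than the intron element.

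The interferon-induced genes Cxcl9 and Cxcl10 attract activated T cells through Cxcr3 and lie side by side on chromosome 5. Cxcl9 (92321347 to 92328079, minus strand) was at 61.6% in WT (56.7 to 66.3, 396 calls) and 79.8% in TCKO (74.6 to 84.1, 272 calls). The difference was 18.2 points (11.2 to 24.7; exact test, adjusted p = 9.65e-06), and 23 of its 30 CG sites with 4 or more calls in each library were higher. Cxcl10 was at 40.7% and 49.7% (492 and 388 calls). Its 9.09 points (2.47 to 15.6; exact test, adjusted p = 0.0331) stayed below the 10 points required. When the comparison was stratified by CpG, so that the uneven spread of calls over the window did not enter, Cxcl10 differed by 13.01 points and was called (Cochran-Mantel-Haenszel chi-square test, adjusted p = 2.57e-04).

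No CXC attractant of neutrophils was called at the TSS. These 5 genes, Cxcl1, Cxcl2, Cxcl3 and Cxcl5, which act through Cxcr2, and the lung chemokine Cxcl15, had differences of -12.7 to 10.9 points. Cxcl2 was at 32.1% and 40.5% and Cxcl5 at 33.6% and 32.2%, so both kept TSS windows with intermediate levels. Cxcl1 was lower in TCKO, with 58 methylated of 145 calls against 52.8% in WT, without passing the test (exact test, adjusted p = 0.0654). Of its 12 CG sites with 4 or more calls in each library, however, 8 were higher in TCKO.

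Among the other CXC genes, the B cell attractant Cxcl13 rose from 43.1% (34.7 to 51.9, 123 calls) to 64.4% (55.9 to 72.0, 132 calls), a difference of 21.3 points (exact test, adjusted p = 0.00480). Cxcl16, a membrane-bound ligand of Cxcr6, rose from 41.8% to 51.9% (10.2 points, exact test, adjusted p = 0.0467), but stratified by CpG it differed by 1.06 points and was not called (Cochran-Mantel-Haenszel chi-square test, adjusted p = 0.850). Cxcl17 was at 69.5% and 80.2% and did not pass the test. The TSS window of Cxcl12, the niche factor of marrow stroma (chromosome 6, 117168535 to 117181367, plus strand), was among the least methylated. It stood at 9.17% in WT (6.02 to 13.8, 218 calls) and 12.0% in TCKO (8.67 to 16.4, 275 calls), a difference of 2.83 points (-2.83 to 8.22; exact test, adjusted p = 0.592). The gain at Ccl2 and Ccl7 was not seen at the chemokine with the lowest level in WT, whose window holds 127 CG sites.

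Cxcl14, an epithelial and stromal chemokine, was the only member called lower, at 35.3% in WT (187 calls) and 18.4% in TCKO (261 calls; difference -16.9 points, exact test, adjusted p = 6.80e-04). The calls were not spread alike over its window. From 350 bp upstream of the TSS onward, where the level was 4.67% in WT and 1.99% in TCKO, WT had 107 calls and TCKO 201. Further upstream, where it was 76.2% and 73.3%, WT had 80 and TCKO 60. Stratified by CpG the difference was -3.06 points and was not called (Cochran-Mantel-Haenszel chi-square test, adjusted p = 0.472), and the same held for its gene body, where -12.0 points became -1.499.

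Of the CC chemokines that guide lymphocyte homing, Ccl19, a ligand of Ccr7, was called, from 57.9% (44.98 to 69.8, 57 calls) to 83.3% (69.4 to 91.7, 42 calls; exact test, adjusted p = 0.0357). It had the fewest calls of the members tested, and stratified by CpG its 22.8 points did not pass (Cochran-Mantel-Haenszel chi-square test, adjusted p = 0.0680). Ccl25, the thymic and gut ligand of Ccr9, was at 9.58% and 14.5% (4.88 points, exact test, adjusted p = 0.150) in a window of 154 CG sites around its gene record's start. That start lies 24378 bp from the start of its principal transcript, where the window was methylated in both libraries, at 75.1% and 81.7%. Ccl28 was at 71.4% and 70.7%, Ccl21a at 80.9% and 81.4% and Ccl27b at 72.5% and 64.9%, none past the test. Ccl27a was at 28.9% and 22.6%, also without passing, and its difference of -6.26 points was 4.55 stratified by CpG. At the start of its principal transcript, 4035 bp away, it was at 77.2% and 77.0%.

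None of the 5 remaining CC genes was called. They are Ccl17 and Ccl22, ligands of Ccr4, Ccl20, the ligand of Ccr6, and the eotaxins Ccl24 and Ccl26. All were methylated in WT, at 67.7% to 88.8%, and differed by -1.20 to 10.3 points.

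How firmly the TSS calls stood varied between the genes. Under 8 other ways of forming the windows or comparing them (500 bp or 2 kb on each side, the principal transcript, only cytosines with 4 or more calls, none above 50 calls, either strand alone, and stratified by CpG) Ccl7 was called under all 8, Ccl9 and Cxcl9 under 7, Cxcl13 under 6 and Ccl2 under 5, with differences that stayed between 16.3 and 46.0 points at Ccl2. Ccl11 was called under 4, Ccl19 under 3, and Ccl12 and Cxcl16 under 2. Calls of a lower level were also made, for Cxcl14 under 4 settings, Ccl28 under 2 and Cxcl1 under 1. Stratified by CpG, 9 members were again called higher (26.5%), beside 13.8% over all genes. Of these 9 members 6 were shared: Ccl2, Ccl7, Ccl9, Ccl11, Cxcl9 and Cxcl13. The other 3 were Cxcl10, Ccl8 (15.3 points) and Ccl22 (11.9 points), and no member was called lower in that setting.

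Beyond the TSS the gain was broader and more even. Over gene bodies 10 of 33 members were higher in TCKO (30.3%), where the share over all genes was 15.0%, and 1 was lower, Cxcl14, where it was 0.695%. The median difference, 6.52 points, was close to the 5.71 over all genes. Member bodies had a median of 415 calls in WT, beside 1983 over all genes, so the shares are compared at unlike depth. At any size of difference 42.4% of member bodies were higher, beside 65.3% over all genes. The bodies called higher were those of Ccl7 (42.3% to 78.2%), Ccl19, Ccl9 (61.3% to 82.3%), Ccl11, Ccl2, Cxcl13, Ccl5, Cxcl16, Ccl4 and Cxcl9, the last with 11.3 points. Stratified by CpG 10 bodies were again called higher (30.3%), beside 12.8% over all genes, and 8 of them were shared. The body of Cxcl16 fell from 11.6 to 3.92 points and that of Ccl19 did not pass (Cochran-Mantel-Haenszel chi-square test, adjusted p = 0.0600), while Cxcl10 and Ccl24 were called. On minus strand cytosines the members' share, 16.1%, was below the 18.2% of all genes. The 10 kb upstream of the gene was higher in 15 of 35 members (42.9%), beside 18.0% over all genes, with a median of 9.01 points against 5.18. The 10 kb downstream was higher in 11 (31.4%), beside 19.3%, with a median of 8.73 points against 5.58. Over the gene with 10 kb on each side 8 members were higher (22.9%), beside 10.5%, and 33 of 35 lay above 0. Those 8 were Ccl2 (20.9 points), Ccl7 (18.7), Ccl9 (16.3), Ccl5 (14.3), Ccl21a (13.5), Ccl21b (12.7), Ccl6 (12.3) and Ccl11 (11.3). Stratified by CpG 8 loci were again called higher (22.9%), beside 8.52% over all genes. Of these 6 were shared, with Ccl21a and Ccl21b just under 10 points and Ccl27a and Cxcl13 called in their place. Since the loci of 19 members overlap that of another, these counts share sequence and are not independent.

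**Figure D3:**
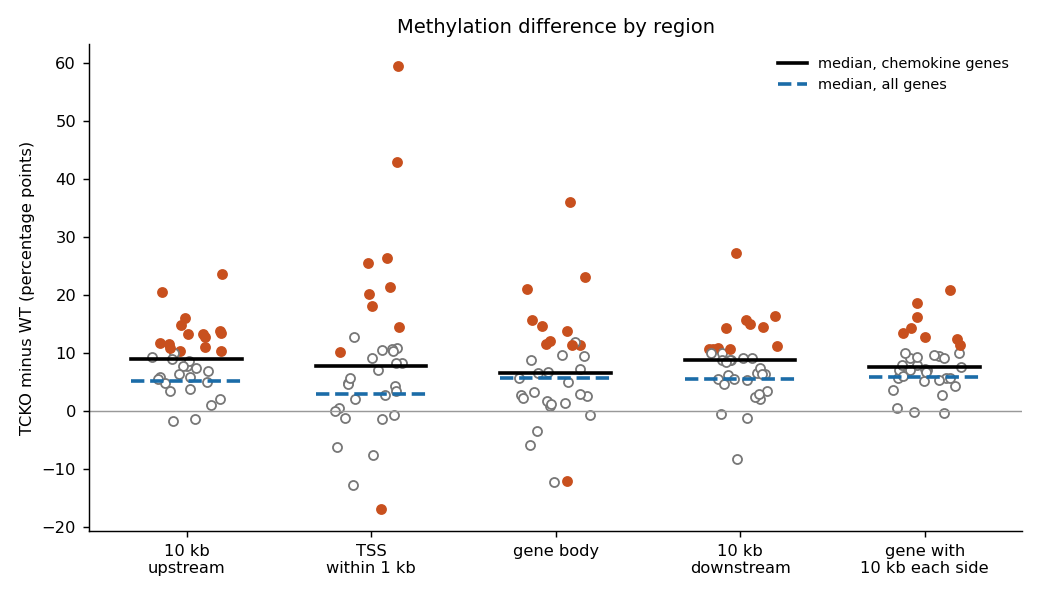
Difference in CG methylation (TCKO minus WT, percentage points) of each tested chemokine gene in 5 regions, with filled points for genes called in either direction. The solid line is the median over chemokine genes and the dashed line that over all genes; the medians lie furthest apart at the TSS (7.69 against 3.02) and 10 kb upstream (9.01 against 5.18).

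Pooled over the members, the level in 1 kb windows around the TSS was higher in TCKO in every window from 10 kb upstream to 10 kb downstream, by 2.37 to 14.6 points. The largest difference lay 4 to 5 kb upstream, where the level was 61.1% in WT and 75.6% in TCKO. Over all genes the windows differed by 3.57 to 7.30 points, the most 1 to 2 kb downstream of the TSS. In the kilobase on either side of the TSS the members' pooled difference was 4.11 points upstream and 4.33 downstream, beside 5.36 and 3.57 over all genes. Upstream the members' pooled difference was below that of all genes, although their median over the whole window was above it.

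**Figure D4:**
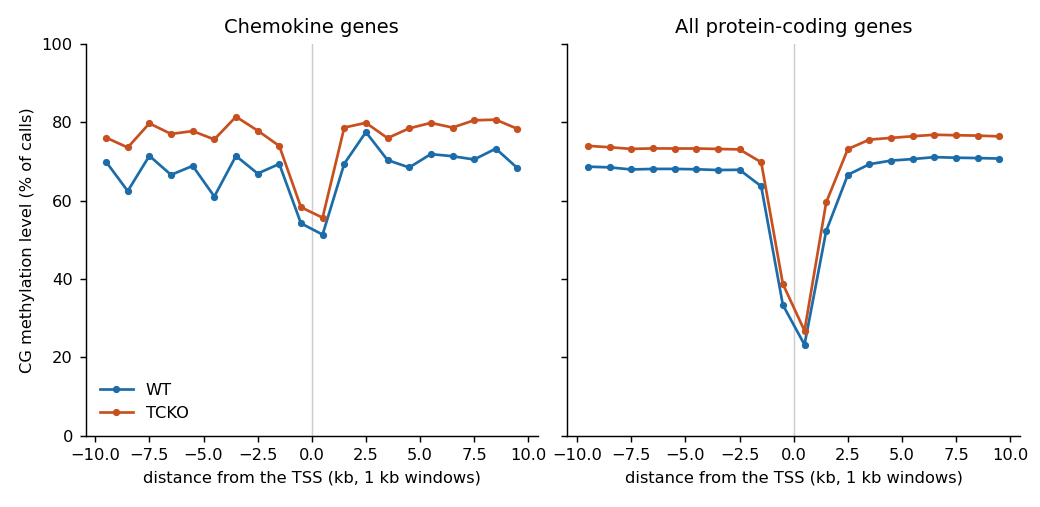
CG methylation level (% of calls, 1 kb windows) by distance from the TSS for the 35 chemokine genes and for all autosomal protein-coding genes, in WT (blue) and TCKO (orange). The dip at the TSS is shallower over chemokine genes (51.4% in WT just downstream) than over all genes (23.2%), and the chemokine lines lie furthest apart 4 to 5 kb upstream.

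The clusters of the 2 chromosomes differed in how their pooled level stood out from their surroundings. The Ccl2 to Ccl8 cluster with 10 kb on each side, 101.2 kb in all, was 12.5 points higher in TCKO (11.2 to 13.8), from 69.6% to 82.1%, while the 1 Mb on each side of it was 6.33 points higher (6.02 to 6.64). The Ccl5 to Ccl4 cluster of 159 kb was 10.5 points higher (9.48 to 11.4), from 70.0% to 80.4%, beside 6.16 points in the 1 Mb on each side (5.89 to 6.44). On chromosome 5, the Cxcl5 to Cxcl2 cluster of 167 kb was 7.65 points higher (6.76 to 8.54), beside 8.28 in its surroundings (8.02 to 8.54), and Cxcl9 with Cxcl10 7.04 points higher (5.44 to 8.64), beside 8.07 (7.80 to 8.34). Both CC clusters of chromosome 11 thus gained more in pooled level than the sequence around them, with intervals that did not overlap. The CXC clusters of chromosome 5 did not. Counts of gained bins, by the rule given below for bins, did not follow this split. Ccl2 to Ccl8 had 1 of 39 testable bins, beside 20 of 879 in its surroundings, and Ccl5 to Ccl4 6 of 93 beside 17 of 1148. Cxcl5 to Cxcl2 had 7 of 109 beside 53 of 1273, and Cxcl9 with Cxcl10 4 of 46 beside 46 of 1240. The difference between these counts was not tested.

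Bins of 200 bp located the strongest gains. A bin was testable with 4 or more CG cytosines that each had 4 or more calls in both libraries, and gained at 40 points or more, without a test. Chemokine loci held 444 testable bins, of which 322 were higher and 120 lower in TCKO. The gain reached 40 points in 20 of them (4.505%, Wilson interval 2.94 to 6.86), beside 3.23% of all autosomal testable bins and 3.25% of those within 10 kb of a protein-coding gene, shares that the interval includes. No bin lost 40 points, beside 0.0254% over the autosomes. Of the 23 bins at 20% or less in WT 8 gained (34.8%, 18.8 to 55.1), beside 28.4% of such bins over the autosomes. The share of gained bins in chemokine loci was therefore close to the background. Just inside the threshold lay bins with gains of 40.7, 42.1 and 43.2 points, and just outside it bins with 39.4, 39.2 and 38.0 points.

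**Figure D5:**
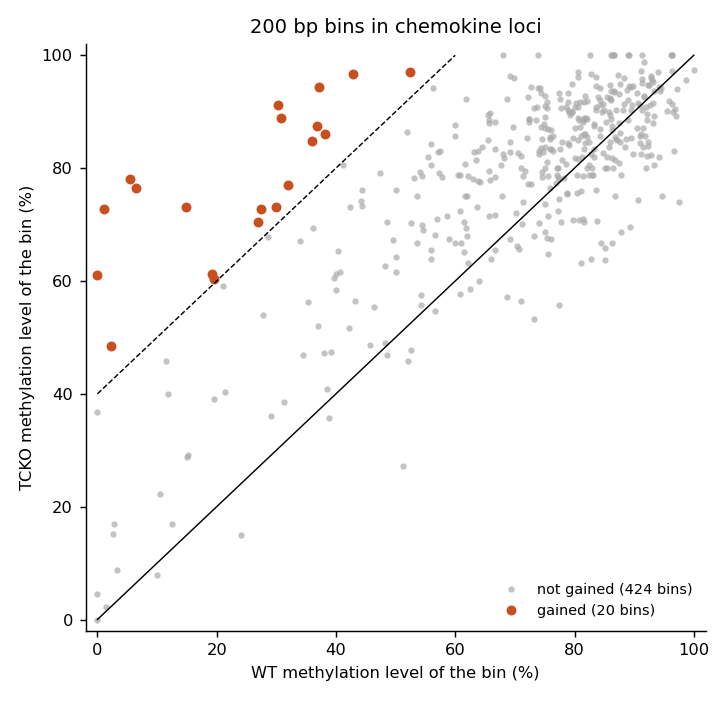
Methylation level of the 444 testable 200 bp bins in chemokine loci, WT on the x axis and TCKO on the y axis (%). Orange points are the 20 bins on or above the dashed line of a 40 point gain, the solid line marks equal levels, and most bins sit at high levels in both libraries.

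The 20 gained bins belonged to 13 members, while 22 had none. Cxcl9 and Ccl9 had 3 each, Cxcl5, Ccl1, Ccl5 and Cxcl14 had 2, and Cxcl2, Cxcl3, Cxcl10, Ccl2, Ccl6, Ccl27a and Ccl28 had 1, with the Ccl9 intron element counted for Ccl6 as well. Testable bins per member ranged from 1 to 49 with a median of 12, so a gene without a gained bin may have had little sequence that could show one. Ccl7, the gene of the largest TSS difference, had 8 testable bins and none that gained 40 points, and the bin at 39.2 points lies just within the 3′ part of its gene. Of the gained bins 8 were on chromosome 5 and 8 on chromosome 11, 12 were intergenic, 7 intronic and 1 in an exon. Only 2 lay within 1 kb of a principal TSS and 9 within 5 kb, with a median distance of 5629 bp. They held 2 to 12 CG sites, with a median of 4, and their median level was 28.7% for WT and 76.7% for TCKO.

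Near Ccl2 the gained bin lay at -2270 bp in an intron of the noncoding gene Gm17268 and rose from 19.2% (8.51 to 37.9) to 61.3% (43.8 to 76.3). At Cxcl10 the bin at -4619 bp, also in an intron of Art3, rose from 2.27% to 48.4%. At Cxcl14 bins at -8950 and -7550 bp rose from 14.8% to 73.1% and from 52.4% to 97.0%, while the TSS window of the gene did not gain. At Cxcl5 neighbouring bins 4523 and 5123 bp past the TSS rose from 6 of 20 calls to 73.2% and from 30.8% to 88.9%.

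Some bins with little methylation in WT kept it low in TCKO. The bin at -1473 bp from the Cxcl12 TSS, with 9 CG sites, had no methylated call in either library. There 3 calls would be 4.48% in WT and 4.35% in TCKO, and the Wilson intervals reach 5.42% and 5.27%. The bin 5228 bp past the Cxcl2 TSS was at 3.33% and 8.82%, although the element 4428 bp past it rose from 6.45% to 76.5%. A bin at -6450 bp from the Cxcl13 TSS rose by less than the threshold, from 2.82% to 17.0% (14.2 points, 4.98 to 23.0).

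Short sequence motifs were counted in the bins on both strands. The AP-1 motif TGANTCA was in 2 of the 20 gained bins, beside 12.5% of all gained bins and 5.74% of all testable bins, and the Runt motif AACCACA in 3, beside 8.47% and 5.10%. The TEAD motif CATTCCA and the NF-kB motif were each in 1, beside 5.39% and 2.22% of all gained bins. With 20 bins these shares are counts of letters and no more. The gained bin near Ccl2 held both the AP-1 and the NF-kB motif, and the Ccl9 intron element held the AP-1 motif.

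The receptors and regulators of the same pathway were compared in the same way, at the TSS. Of 17 chemokine receptors 5 were higher in TCKO and none lower, with a median of 6.33 points, beside 16.7% and 3.02 points over all genes. They were Ccr4 (54.6% to 81.7%), Ccr6 (48.1% to 74.2%), Ccr8 (55.9% to 78.2%), Cx3cr1 (173 of 346 calls to 64.0%) and Ccrl2 (31.6% to 44.1%). Cxcr4, the receptor of Cxcl12, was unmethylated in both libraries, at 0.787% and 1.10%. None of the 4 receptors named Ackr, a set of atypical receptors that scavenge chemokines, was called. Of 5 chemokine ligands with other names Pf4 (70.3% to 86.4%) and Ppbp (71.4% to 85.8%), platelet chemokines within the Cxcl5 to Cxcl2 cluster, were higher. Among 11 regulators of the NF-kB and interferon pathways Rela (20.7% to 41.7%) and Nfkb1 (11.3% to 22.9%), which encode NF-kB subunits, were higher. The list's median of 3.03 points was close to the 3.02 of all genes, and 2 of 11 is a share near that of all genes.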

How the data were processed

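WGBS data of 1 WT and 1 TCKO library were used. Per the labels, CASAVA and BSMAP 2.74 were used with the GRCm38 build, and per the methods of the study reads that mapped to a single place were retained. The authors deposited raw counts: for every CG position of either strand, how many calls were methylated and how many were made in all. Multi-copy genes therefore have few calls, 5mC and 5hmC are not told apart, and duplicate removal is not given in the sources used here. The WT library held 261127589 calls and the TCKO library 223645082, with a mean of 7.22 and 6.31 per covered autosomal cytosine. All 17959438 positions on the 8 chromosomes lay on a CG of GRCm38.

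Counts were pooled within 1 kb of the GENCODE M21 gene start, over the gene body and over 10 kb on each side. Levels carry 95% Wilson and differences 95% Newcombe intervals. Regions with 20 or more calls in each library were compared by a 2-sided Fisher exact test, and p-values were adjusted across all autosomal protein-coding genes (Benjamini-Hochberg). On simulated TSS windows of 20651 genes, 96.0% of 200 windows changed by 30 points were recovered and 3 unchanged ones called. The simulation drew calls independently at 1 level per window and library. It therefore gives no rate of calls made through uneven coverage of CG sites or variation between libraries. In the data, 2135 of the 3449 TSS windows of all genes called higher were also called when stratified by CpG. The comparison stratified by CpG (Mantel-Haenszel difference, both strands of a CpG pooled) was added after seeing the data. Values are given in full for members called at the TSS, members with gained bins, those under 20% in WT and Cxcl12. The members and lists were chosen with earlier results of these data known. Cxcl11, a polymorphic pseudogene in the annotation, is no member, and 1 gene of the receptor list is not reported here. The software was Python 3.11.15 with scipy 1.17.1, numpy 2.4.6, matplotlib 3.10.9 and numba 0.67.0.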

Additional observations from a re-analysis of the deposited data

How the results depend on the processing

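Of 76 recomputed values, 57 stayed close to the reported value, 19 moved and none changed direction. A median counted as close when it lay within the median half-width of the members' 95% intervals. That allowance was 9.815 points at the TSS, 6.686 over bodies and 2.505 over loci. At the TSS and over bodies it exceeded the reported medians, 7.689 and 6.516 points. There, counting as close does not show that a median was stable, and the ranges below show how far it moved. The number of TSS windows called higher, 9, fell to 5 with 500 bp on each side, 4 with only cytosines of 4 or more calls in both libraries, 4 on plus strand cytosines, 5 on minus strand cytosines and 5 with 100 or more calls in each library, settings that leave fewer calls or genes. The shares over all genes were 7.91%, 13.8%, 13.5%, 13.1% and 17.7%, above the members' own with the 4-call minimum (12.9%) and the plus strand (12.5%). With 2 kb on each side 8 of 35 were called (22.9%), beside 23.9%. The 10 gene bodies called higher became 5 with cytosines of 4 or more calls, 5 on minus strand cytosines and 3 at 20 points, beside 14.8%, 18.2% and 1.18% of all genes, and at any size of difference 14 (42.4%), beside 65.3%. The 8 loci called higher became 1 at 20 points and 30 at any size of difference (85.7%, beside 79.7% of all genes). The 20 gained bins (4.505%, beside 3.23% of all bins) became 34 with a mean of 4 or more calls per cytosine (3.78%, beside 3.15%). They became 3 with 10 or more calls on each cytosine (4.29%, beside 2.31%). At a gain of 30 points they were 35 (7.88%, beside 6.17%) and at 50 points 10 (2.25%, beside 1.70%). With 25 kb on each side they were 37 (5.09%, beside 3.23%). With 2 kb they were 5 (2.48%), a share below the 3.23% of all bins. The median difference ranged from 5.31 to 8.64 points at the TSS, from 5.19 to 6.67 over bodies and from 7.26 to 8.36 over loci, under every setting run above the median of all genes at the TSS and over loci but below it over bodies with the 4-call minimum, on the minus strand and with the mean of cytosine levels. Stratified by CpG the counts were again 9, 10 and 8, of which 6, 8 and 6 were shared genes. The shares over all genes in that setting were 13.8%, 12.8% and 8.52%. No paired analysis was possible because there is 1 library per genotype and the labels carry no replicate numbers, and no library could be left out. With a median of 184 calls in WT and 153.5 in TCKO, a TSS window cannot show differences of a few points.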
